A study of Cucumis melo with 27 samples.

Results

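In melon (Cucumis melo), 169 of 25200 genes counted were at least 8-fold higher in the fruit taken as younger in 2 pairs of groups. They also averaged at least 20 CPM in leaf. They were chosen by a rule on CPM, which is a gene's count scaled by its library's total to counts-per-million units. The mean of F39 fruit at 20-25 d after flowering had to be at least 8 times the mean at 40 d plus 0.5 CPM. A second pair of fruit groups, described below, had to meet the same condition. In both pairs the lowest young library had to lie above the highest old library, and the mean in leaf had to reach 20 CPM. The conditions on fruit alone were met by 444 genes. Of these, 169 (38.1%) reached 20 CPM in leaf, 211 lay between 1 and 20 CPM there and 64 lay under 1 CPM. Among all 25200 genes, 4592 (18.2%) reached 20 CPM in leaf. That total includes 3500 genes with no count in any library, whereas the fruit conditions require counts in fruit. The shares of 38.1% and 18.2% therefore have unlike bases, and their difference was not tested.

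The libraries came from field-grown plants of 2 cultivars named F39 and TTDV, as 27 RNA-seq libraries in 9 groups of 3. Leaf was taken from F39 when 14 days old, and fruit was taken from both cultivars at 20-25, 30-35, 40 and 45 d after flowering. No leaf of TTDV was analysed here, so every statement on leaf concerns F39. The labels name no genotype, allele or treatment beyond the cultivar. Nothing in them ties a library to its own plant, so p-values measure only how libraries of a group spread, which may be technical. Total counts per library ranged from 6025615 to 28731038.

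The group of 12 libraries is uncertain. Files follow their attachment in GEO, but in 4 groups the file names and the sample titles carry different library numbers. Read by number, F39 45 d becomes TTDV 20-25 d. TTDV 20-25 d becomes TTDV 30-35 d, TTDV 30-35 d becomes TTDV 40 d, and TTDV 40 d becomes F39 45 d. The numbers agree for leaf, for F39 at 20-25, 30-35 and 40 d, and for TTDV at 45 d. The second pair of the rule took its young libraries from the files attached to F39 45 d and its old ones from those attached to TTDV 30-35 d. Group names below follow the attachment. For this pair alone, the words young and old follow the library numbers, which make it TTDV 20-25 d and TTDV 40 d. As attached, its young side is the older fruit. Since each group of 3 moves as a whole, the other reading changes the names of the groups and not the values of a contrast.

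A leaf is the plant's main site of carbon fixation and exports sugar to growing organs. A young melon fruit is a green, expanding organ that imports that sugar. Ripening brings softening of the cell walls, loss of green colour, sugar accumulation and aroma, in many melons together with a rise in ethylene. Which of the 169 genes belong to such processes was not analysed here. The files carry gene IDs without names, and none of the 25200 IDs (0) could be matched to the reference gene table. For the same reason the labelled tissues could not be checked against marker genes. Gene lengths were not used either, so a CPM value compares libraries for 1 gene and does not rank transcripts of different genes.

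The rule used leaf, F39 20-25 d, F39 40 d and the files attached to F39 45 d and TTDV 30-35 d. Values in these 15 libraries are given as a description. Tests compared groups among the other 12 libraries, which are F39 30-35 d, TTDV 20-25 d, TTDV 40 d and TTDV 45 d. The spread behind each p-value was estimated over all 27 libraries, those of the rule included. The p-values are therefore not fully independent of the rule. The map of levels by library shows all 27 libraries together.

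**Figure D1:**
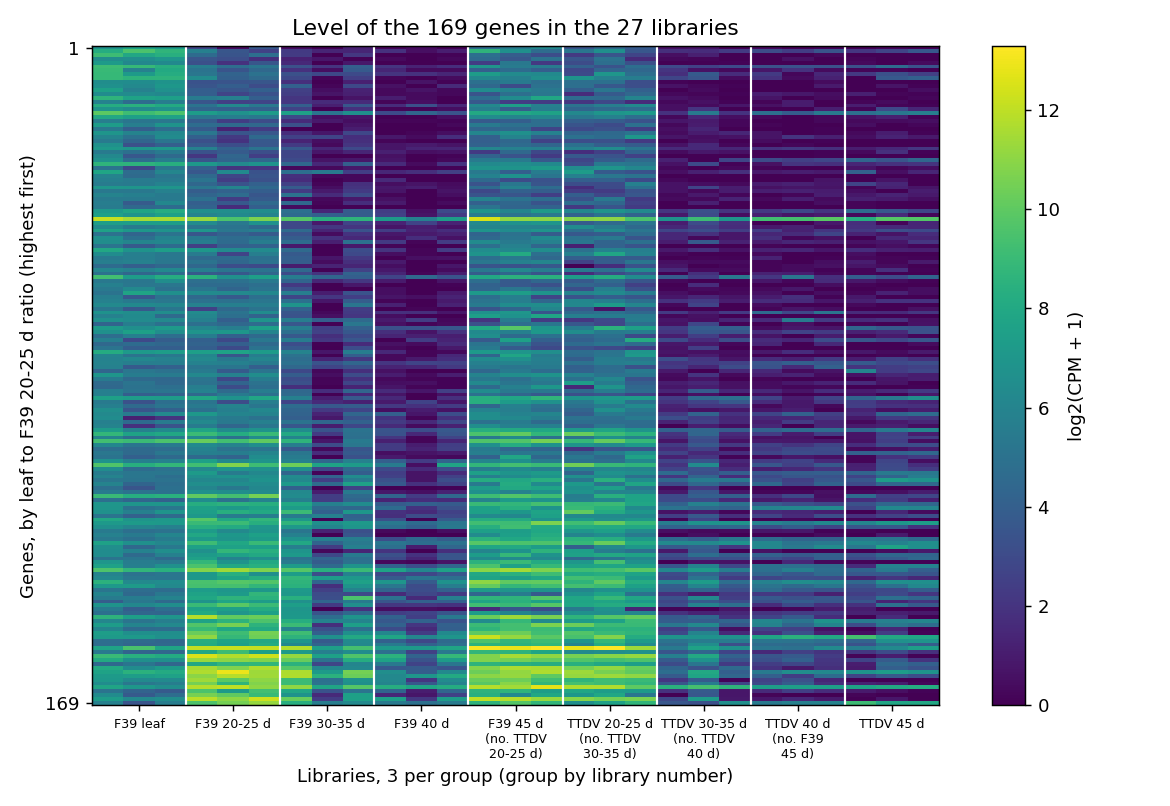
Level of the 169 genes, as log2(CPM + 1) in colour, with genes in rows ordered by the ratio of leaf to F39 20-25 d and the 27 libraries in columns, 3 per group. Names in brackets give the group by library number. Leaf, F39 20-25 d, F39 45 d as attached and TTDV 20-25 d are bright over most rows, the 12 libraries of F39 40 d and of TTDV at 30-35, 40 and 45 d are dark, and the 3 libraries of F39 30-35 d differ from one another.

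Together the genes held 2.74%, 1.81% and 1.89% of all counts in leaf replicates 1, 2 and 3. In F39 fruit at 20-25 d they held 6.76%, 5.75% and 6.06%. In the files attached to F39 45 d they held 6.71%, 6.66% and 6.32%. All 6 of these fruit libraries lay above the 3 leaf libraries. Leaf itself lay above every library of F39 40 d, with 0.319%, 0.124% and 0.362%, and of TTDV 30-35 d, with 0.166%, 0.467% and 0.184%. These orders follow from the rule in part. Among libraries outside it, TTDV 20-25 d had 4.43%, 5.12% and 3.04%, below all 6 young libraries of the rule and above the 3 leaf libraries. With TMM scaling, which sets libraries level on the bulk of their genes, replicate 3 had 2.34% and lay below the leaf libraries, which then had 3.37% to 4.54%. TTDV 40 d had 0.224%, 0.242% and 0.278%, and TTDV 45 d had 0.276%, 0.376% and 0.374%, in the range of its old libraries. In bulk tissue, fewer cells of a type and less RNA per cell cannot be told apart.

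**Figure D2:**
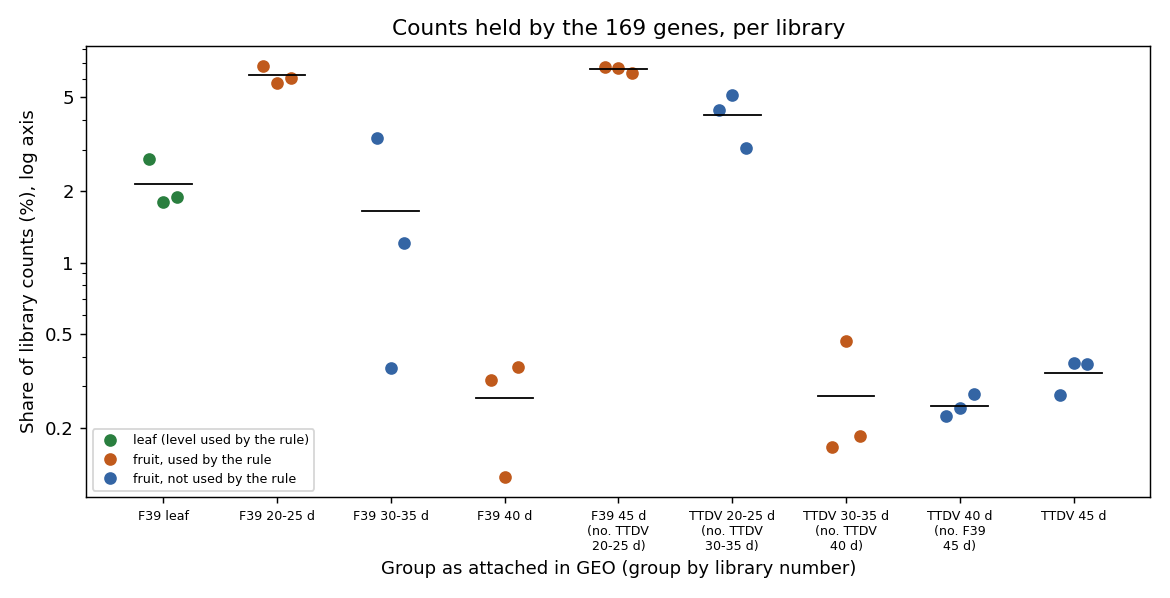
Share of each library's counts held by the 169 genes, in percent on a log axis, with 1 point per library and a bar at the mean of the 3 libraries of a group. The colours separate leaf, fruit libraries used by the rule and fruit libraries it did not use; TTDV 20-25 d, not used, lies between 3.04% and 5.12%, and F39 30-35 d spans 0.357% to 3.38%.

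Leaf and F39 20-25 d ranked the chosen genes only partly alike. Mean levels ran from 20.2 to 3437 CPM in leaf, with a median of 54.3 CPM, and from 5.94 to 4806 CPM in F39 20-25 d, with a median of 60.2 CPM. In leaf, 77 genes lay under 50 CPM, 35 between 50 and 100 CPM and 57 at 100 CPM or more, of which 17 reached 300 CPM. In F39 20-25 d, 18 genes reached 1000 CPM. The rank correlation between leaf and F39 20-25 d across the 169 genes was 0.34 (Spearman's rho). Between F39 20-25 d and TTDV 20-25 d it was 0.88. These values describe genes, which are not independent replicates, and in each of them the same gene length enters both sides. The rule used leaf and F39 20-25 d, and its minimum of 20 CPM cut the range of leaf levels, which can lower the first value. No such minimum was set on TTDV 20-25 d. The values 0.34 and 0.88 are therefore not on equal terms, and their difference was not tested.

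By column totals, 49 genes were more than 2-fold higher in leaf than in F39 20-25 d, 61 were more than 2-fold lower and 59 lay within 2-fold. All 3 leaf libraries lay above all 3 of F39 20-25 d for 52 genes and below them for 59, also by column totals. The libraries overlapped for 58. The rule used both groups. These counts were not set beside a share over all genes and were not repeated with TMM scaling. A single gene took 14.4% to 15.6% of all leaf counts, and the scaling of leaf against fruit mattered for these numbers. TMM scaling raised the median ratio of leaf to F39 20-25 d by 1.08 on the log2 scale, from 0.972 to 2.05. With TMM, 86 genes were more than 2-fold higher in leaf and 34 more than 2-fold lower. The leaf mean was above the F39 20-25 d mean for 82 genes by column totals and for 108 with TMM. Which side of equality a gene near 1 lies on therefore depends on the scaling.

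**Figure D3:**
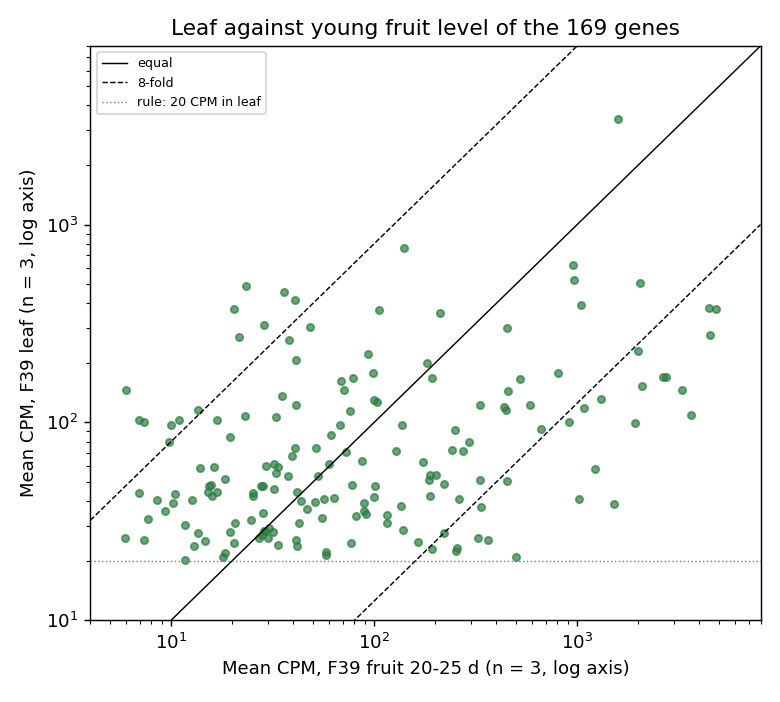
Mean CPM in F39 leaf against mean CPM in F39 fruit at 20-25 d for the 169 genes, both on log axes and as a mean of 3 libraries. The solid line marks equal levels by column totals, the dashed lines 8-fold differences and the dotted line the minimum of 20 CPM in leaf set by the rule; 13 genes lie above the upper dashed line and 25 below the lower one, and with TMM scaling points would move up, by 1.08 on the log2 scale at the median.

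Of the 6 genes with the highest leaf CPM, MELO3C025164.2 was counted most. It had 4440, 2909 and 2964 CPM in leaf replicates 1, 2 and 3 and 2411, 747 and 1611 CPM in F39 20-25 d. All leaf libraries lay above those of F39 20-25 d. It alone made up 16% of the CPM of all 169 genes in leaf. MELO3C007398.2 had 967, 577 and 737 CPM in leaf and 164, 103 and 155 CPM in F39 20-25 d. Its leaf mean of 761 ± 196 CPM (SD, n = 3) was 5.4 times the mean of the young fruit, and the groups did not overlap.

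MELO3C025563.2 had 298, 747 and 415 CPM in leaf and 54.7, 10.6 and 5.05 CPM in F39 20-25 d. Every leaf library was above the highest of these fruit libraries, although the files attached to F39 45 d reached 402 CPM in replicate 1. MELO3C010866.2 showed the reverse order, with 750, 429 and 348 CPM in leaf and 1782, 2649 and 1688 CPM in F39 20-25 d. MELO3C016232.2 had 614, 530 and 729 CPM in leaf and 1194, 624 and 1048 CPM in F39 20-25 d. Its groups overlapped, and its ratio was 0.654 by column totals and 1.39 with TMM. MELO3C020428.2, with 805, 321 and 445 CPM in leaf and 600, 1721 and 580 CPM in F39 20-25 d, overlapped as well, at a ratio of 0.541 by column totals and 1.06 with TMM.

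The 4 genes with the highest ratio of leaf to F39 20-25 d were MELO3C006338.2, MELO3C025563.2, MELO3C021449.2 and MELO3C017496.2, at 24.2, 20.7, 18.3 and 14.7 by column totals. MELO3C006338.2 had 105, 184 and 146 CPM in leaf. In F39 20-25 d it had 5.95, 0.313 and 11.8 CPM, so that replicate 2 lay near the late fruit. In the files attached to F39 45 d it had 25.3, 41.7 and 72.6 CPM. MELO3C021449.2 had 542, 246 and 333 CPM in leaf and 23.6, 10.1 and 27.5 CPM in F39 20-25 d. MELO3C017496.2 had 89.99, 92.6 and 124 CPM in leaf and 10.3, 8.13 and 2.47 CPM in F39 20-25 d. For 27 of the 169 genes the lowest leaf library was above every one of the 24 fruit libraries by column totals. No share over all genes was computed for this count, and the leaf minimum of the rule favours it.

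At the other end stood the 4 genes with the lowest ratio of leaf to F39 20-25 d, whose leaf means ran from 20.8 CPM in MELO3C012702.2 to 109 CPM in MELO3C018579.2. MELO3C007297.2 had 56.8, 10.4 and 49.4 CPM in leaf and 759, 1460 and 2356 CPM in F39 20-25 d, a mean 39.2-fold lower in leaf. MELO3C009736.2 had 84.1, 12.7 and 25.8 CPM in leaf and 1502, 1052 and 502 CPM in F39 20-25 d, 24.9-fold lower in leaf. MELO3C012702.2 had 32.0, 17.9 and 12.5 CPM in leaf and 737, 150 and 605 CPM in F39 20-25 d, 23.9-fold lower in leaf. MELO3C018579.2 was 33.4-fold lower in leaf and is described with the young-fruit genes. None of these groups overlapped. Leaf levels carried their own spread, since replicate 1 was the highest leaf library for 125 of the 169 genes and 36 genes had at least 1 leaf library under 20 CPM.

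The 6 genes with the highest CPM in F39 20-25 d all lay lower in leaf, without overlap and under both scalings. MELO3C002874.2 had 5845, 3488 and 5084 CPM in F39 20-25 d and 512, 332 and 282 CPM in leaf. MELO3C006821.2 had 3382, 7512 and 2603 CPM in young fruit and 200, 358 and 274 CPM in leaf. MELO3C015995.2 had 4333, 4658 and 4330 CPM in young fruit and 206, 708 and 217 CPM in leaf. Its fruit libraries agreed closely, while leaf replicate 2 stood above the other leaf libraries. MELO3C018579.2 had 3926, 2098 and 4888 CPM in young fruit and 161, 76.5 and 89.6 CPM in leaf. MELO3C014883.2 had 3645, 4130 and 2081 CPM in young fruit and 218, 130 and 91.5 CPM in leaf. MELO3C026342.2 had 1987, 3540 and 2701 CPM in young fruit and 149, 165 and 192 CPM in leaf. The 10 most counted of the 169 genes made up 52.0% of the CPM of all of them in F39 20-25 d and 37.2% in leaf.

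**Figure D4:**
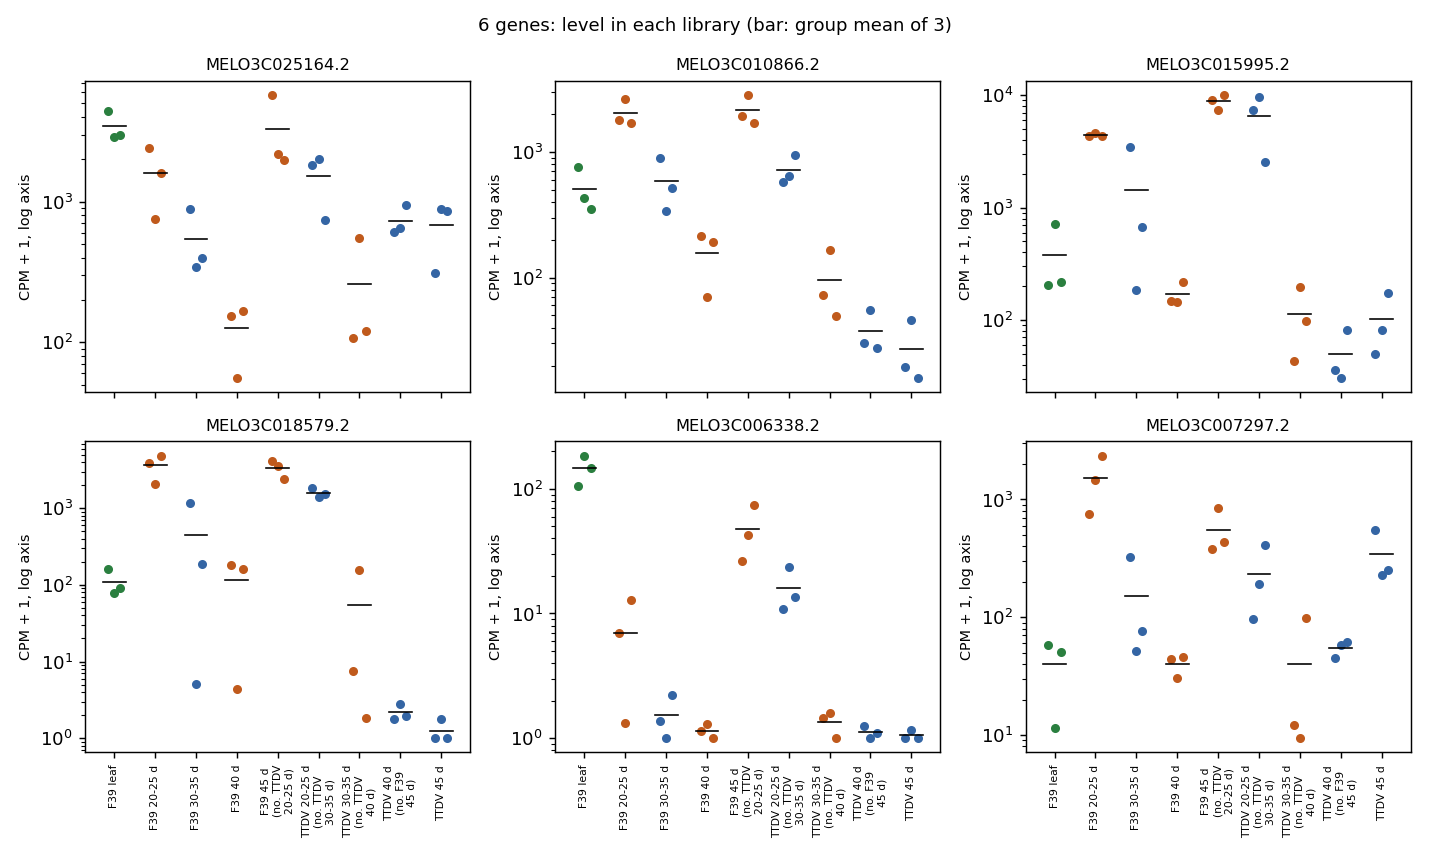
Level of 6 of the genes in each library, as CPM + 1 on a log axis, with 1 point per library and a bar at the mean of 3 libraries. Green points are leaf, orange points fruit libraries used by the rule and blue points fruit libraries it did not use, and names in brackets give the group by library number. MELO3C006338.2 is highest in leaf, MELO3C015995.2 and MELO3C018579.2 are highest in young fruit, and MELO3C007297.2 is back at 229 to 545 CPM in TTDV 45 d.

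In F39 40 d and in TTDV 30-35, 40 and 45 d the genes were at a small fraction of the young level. F39 45 d, as attached the oldest F39 fruit, was not. Its mean share of counts was 6.56%, against 6.19% in F39 20-25 d. A low level in all late fruit thus holds only with files matched by library number. The median gene kept 2.88% of its F39 20-25 d mean at F39 40 d, with a highest value of 11.6%, both of which the rule limits. In groups outside the rule, the median gene had 2.67% of its TTDV 20-25 d mean at TTDV 40 d and 3.65% at TTDV 45 d. At TTDV 45 d, 51 genes had under 1% of the TTDV 20-25 d mean, 17 had over 25% and 7 had over 50%. Over the 12 libraries of F39 40 d and of TTDV 30-35, 40 and 45 d, 68 genes stayed under 5 CPM in every library and 19 reached 5 CPM in all. For 131 genes the lowest leaf library was above the highest of these 12 libraries. This follows from the rule in part, which set the leaf minimum and limited F39 40 d and TTDV 30-35 d. No share over all genes was computed for it. The TTDV 45 d mean was above the leaf mean for 7 genes.

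The fall of these transcripts in TTDV fruit, as attached, was tested between groups the rule had not used. TTDV 45 d was compared with TTDV 20-25 d, which by library number compares TTDV 45 d with TTDV 30-35 d. All 169 genes passed the filter on low counts. Of them, 156 (92.3%) fell and 0 rose in edgeR's quasi-likelihood F-test, with p-values adjusted by Benjamini and Hochberg's method over all 15130 genes tested and a threshold of 0.05. Among all genes tested, 19.5% were called lower and 15.5% higher. DESeq2 also called 156 lower and 0 higher, and 0 of the 169 were higher at an unadjusted p under 0.05 in edgeR. The median log2 fold change of the 169 genes was -4.89, against -0.06 for all genes tested, and 143 of the calls were more than 8-fold. For 152 genes (89.9%) every TTDV 45 d library lay below every TTDV 20-25 d library, which held for 22.5% of all genes tested.

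TTDV 40 d against TTDV 20-25 d shares its young libraries with that comparison, so the calls are not independent of it. By library number it is F39 45 d against TTDV 30-35 d. Here 160 genes (94.7%) fell and 0 rose in edgeR, against 21.0% lower and 15.0% higher among all genes tested. DESeq2 gave the same 160 and 0 as counts, and 0 genes were higher at an unadjusted p under 0.05 in edgeR. The median log2 fold change was -5.20, against -0.14 for all genes tested. All 169 estimates were below 0, and for 158 genes (93.5%) the libraries did not overlap, against 23.9% of all genes tested. With files matched by number, TTDV 45 d against 20-25 d gave 158 genes lower, against 20.8% of all genes tested, but its young libraries are those by which the rule chose the genes. TTDV 40 d against 20-25 d is then the second pair of the rule itself. Its 168 genes lower, where 17% of all genes tested were lower, were fixed by the choice of the genes and say nothing further about them.

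**Figure D5:**
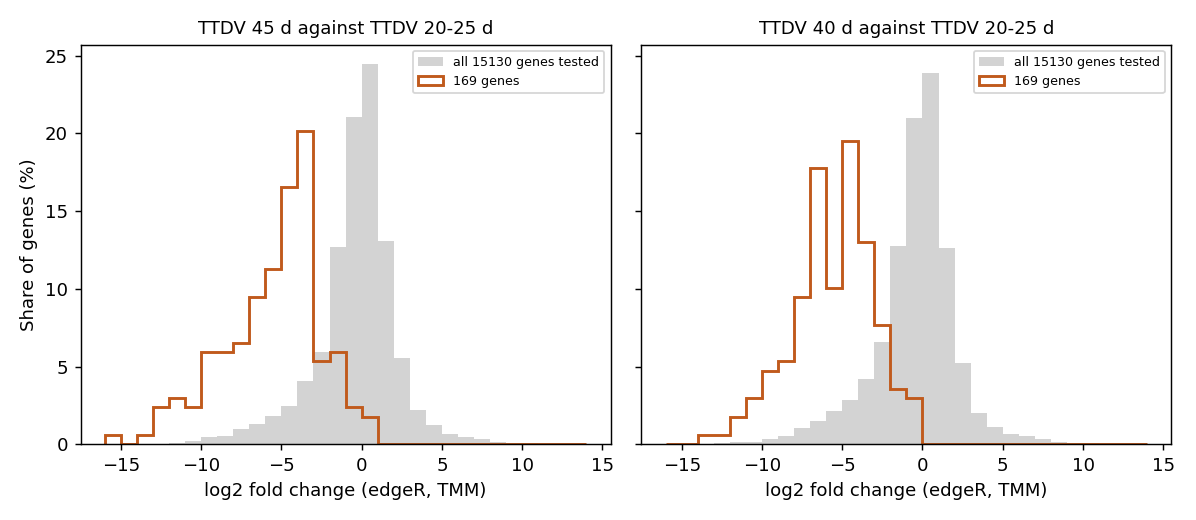
Distribution of log2 fold changes (edgeR, TMM scaling) in TTDV 45 d (left) and TTDV 40 d (right) against TTDV 20-25 d, as a share of genes in percent per 1-unit bin. Grey bars are all 15130 genes tested and the orange outline is the 169 genes, whose medians are -4.89 and -5.20; both panels use the same TTDV 20-25 d libraries, and fold changes of genes with no count in the late group are fitted values, not bounds.

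Among the most counted genes the falls were large against the spread of the libraries. MELO3C002874.2 had 1510, 1967 and 2327 CPM in TTDV 20-25 d, 10.3, 12.6 and 4.19 CPM in TTDV 40 d, and 0.140, 1.08 and 0.0981 CPM in TTDV 45 d. The log2 fold change at 45 d was -12.23 (SE 1.5, edgeR adjusted p = 1.4e-05). MELO3C015995.2 had 7367, 9674 and 2560 CPM in TTDV 20-25 d and 49.2, 81.3 and 172 CPM in TTDV 45 d, a log2 fold change of -6.17 (SE 0.99, edgeR adjusted p = 0.00015). It was thus still well counted at 45 d, whereas MELO3C002874.2 was near 0.

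MELO3C026342.2 had 2318, 2572 and 2132 CPM in TTDV 20-25 d and 5.45, 12.1 and 7.94 CPM in TTDV 45 d, a log2 fold change of -8.20 (SE 1.12, edgeR adjusted p = 4.0e-05). MELO3C006821.2 had 2583, 1528 and 1057 CPM in TTDV 20-25 d and 114, 164 and 117 CPM in TTDV 45 d. Its log2 fold change was -3.86 (SE 1.01, edgeR adjusted p = 0.0057). MELO3C014883.2 had 3399, 3383 and 1033 CPM in TTDV 20-25 d and 207, 256 and 294 CPM in TTDV 45 d. Its log2 fold change was -3.53 (SE 0.65, edgeR adjusted p = 0.00044). In these last 2 genes the late level was between 7.64% and 9.68% of the young one, and no library of one group reached the other group.

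The 4 largest falls at TTDV 45 d ended at or near no count. MELO3C023027.2 had 412, 564 and 510 CPM in TTDV 20-25 d and no count in the 3 TTDV 45 d libraries, and was at least 3938-fold lower against a floor of 3 counts over the group. It kept 5.06, 8.96 and 1.57 CPM in TTDV 40 d. MELO3C007318.2 had 97.6, 179 and 36.8 CPM in TTDV 20-25 d and no count in TTDV 40 d or 45 d, at least 818-fold and 831-fold lower. MELO3C010471.2 had 124, 634 and 101 CPM in TTDV 20-25 d and a single count over the 3 TTDV 45 d libraries. The ratio was 6829, with an exact Poisson 95% interval from 1226 to 269751, which covers counting error only. MELO3C018579.2 had 1853, 1387 and 1547 CPM in TTDV 20-25 d and 0, 0.768 and 0 CPM in TTDV 45 d, from 5 counts in all, a log2 fold change of -12.82 (SE 2.31, edgeR adjusted p = 0.00038). No count in any of the 3 libraries was found for 11 of the 169 genes at TTDV 45 d, 7 at TTDV 40 d and 5 at F39 40 d.

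Of the 6 genes with the highest leaf CPM, 3 fell to a small fraction of their young level in late TTDV fruit. MELO3C016232.2 had 478, 1143 and 472 CPM in TTDV 20-25 d and 0.559, 4.46 and 0.392 CPM in TTDV 45 d, a log2 fold change of -8.74 (SE 1.58, edgeR adjusted p = 0.00039). MELO3C020428.2 had 1379, 495 and 402 CPM in TTDV 20-25 d and 1.26, 6.61 and 2.35 CPM in TTDV 45 d, a log2 fold change of -7.99 (SE 1.74, edgeR adjusted p = 0.0017). MELO3C010866.2 had 572, 641 and 935 CPM in TTDV 20-25 d and 18.3, 44.7 and 15.0 CPM in TTDV 45 d, a log2 fold change of -4.83 (SE 0.60, edgeR adjusted p = 1.4e-05). Both late groups were below both young groups and leaf in these 3 genes.

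MELO3C025164.2, the most counted of the 169 genes in leaf, was also the most counted of them in TTDV 45 d, where it made up 20.1% of their CPM. It had 1811, 2027 and 734 CPM in TTDV 20-25 d, 609, 653 and 939 CPM in TTDV 40 d and 309, 894 and 858 CPM in TTDV 45 d. The groups overlapped. The log2 fold change was -1.30 at 45 d (SE 0.67, edgeR adjusted p = 0.14) and -1.23 at 40 d (SE 0.67, edgeR adjusted p = 0.16). MELO3C007398.2 had 72.1, 122 and 138 CPM in TTDV 20-25 d and 28.4, 37.0 and 50.02 CPM in TTDV 45 d. Its libraries did not overlap, but the log2 fold change of -1.56 (SE 0.74, edgeR adjusted p = 0.11) did not pass the threshold. At TTDV 40 d it passed at -2.11 (edgeR adjusted p = 0.033), a call lost in 4 of the 6 leave-one-library-out fits.

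MELO3C025563.2 had 34.9, 96.8 and 11.1 CPM in TTDV 20-25 d, 7.47, 4.31 and 9.96 CPM in TTDV 40 d and 3.36, 5.69 and 11.6 CPM in TTDV 45 d. TTDV 45 d overlapped with TTDV 20-25 d, and TTDV 40 d did not. The log2 fold change was -2.92 at 45 d (SE 0.95, edgeR adjusted p = 0.021) and -2.90 at 40 d (edgeR adjusted p = 0.022). Each call was lost in 3 of the 6 leave-one-library-out fits, and without replicate 2 of TTDV 20-25 d the values were -1.93 and -1.88. MELO3C032827.2, among the 3 most counted in TTDV 45 d, had 690, 1811 and 293 CPM in TTDV 20-25 d and 656, 262 and 230 CPM in TTDV 45 d, which overlapped. The log2 fold change was -1.42 (SE 0.67, edgeR adjusted p = 0.10). At TTDV 40 d, with 216, 357 and 256 CPM, it passed at -1.90 (edgeR adjusted p = 0.034). That call was lost in 3 of the 6 leave-one-library-out fits, and the value was -0.99 without replicate 2 of TTDV 20-25 d.

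Of the genes with the highest ratio of leaf to young fruit, MELO3C006338.2 had 9.81, 22.6 and 12.5 CPM in TTDV 20-25 d and a single count over TTDV 45 d. The ratio was 358, with an exact Poisson 95% interval from 64.2 to 14125. MELO3C021449.2 had 3.65, 10.2 and 5.53 CPM in TTDV 20-25 d and no count in TTDV 45 d, at least 51.4-fold lower. MELO3C017496.2 had 10.2, 30.8 and 2.03 CPM in TTDV 20-25 d and a single count over TTDV 45 d, a ratio of 342 with an interval from 61.4 to 13521. All 3 passed the edgeR test, with adjusted p = 0.00028, 0.0010 and 0.00026.

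Of the 13 genes not called lower at TTDV 45 d, 10 had a log2 fold change below 0 and 3 above 0. The 3 above 0 were MELO3C020386.2, MELO3C007297.2 and MELO3C006808.2. MELO3C007297.2 had 95.6, 192 and 411 CPM in TTDV 20-25 d, 43.8, 56.6 and 61 CPM in TTDV 40 d and 545, 229 and 250 CPM in TTDV 45 d. The log2 fold change was 0.59 at 45 d (SE 0.78, edgeR adjusted p = 0.59). At 40 d it was -2.10 (SE 0.81, edgeR adjusted p = 0.048), a call lost in 5 of the 6 leave-one-library-out fits and without the filter. Its TTDV 45 d libraries all lay above those of TTDV 40 d, F39 40 d and leaf, but the step from TTDV 40 d to 45 d, 2.69 on the log2 scale, had adjusted p = 0.22 in edgeR.

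MELO3C020386.2 had 14.5, 72.1 and 129 CPM in TTDV 20-25 d, 71.3, 40.5 and 84.2 CPM in TTDV 40 d and 38.6, 207 and 97.9 CPM in TTDV 45 d. These groups overlapped, with a log2 fold change of 0.72 at 45 d (SE 0.85, edgeR adjusted p = 0.54). By contrast it had 186, 190 and 181 CPM in F39 20-25 d and 27.9, 1.08 and 19.8 CPM in F39 40 d. MELO3C006808.2 had 5.60, 13.7 and 23.3 CPM in TTDV 20-25 d and 19.2, 10.5 and 21.0 CPM in TTDV 45 d, a log2 fold change of 0.28 (SE 0.89, edgeR adjusted p = 0.84). In leaf it had 104, 25.5 and 48.7 CPM. MELO3C022734.2 had 17, 26.3 and 41.9 CPM in TTDV 20-25 d and 65.2, 4.15 and 6.08 CPM in TTDV 45 d, where replicate 1 stood above the other libraries. Its log2 fold change of -0.18 (SE 0.99, edgeR adjusted p = 0.92) was 1 of the 4 smallest falls. The direction of MELO3C020386.2, MELO3C006808.2 and MELO3C022734.2 turned when single libraries were left out.

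The 3 libraries of F39 30-35 d lay far apart for these genes. They held 3.38%, 0.357% and 1.22% of counts in replicates 1, 2 and 3. The median gene stood at 42.6%, 2.56% and 16.8% of its F39 20-25 d mean. Replicate 1 was the highest for 146 of the 169 genes and above replicate 2 for 163. MELO3C018579.2 is an example, with 1161, 4.12 and 184 CPM. MELO3C016232.2 had 396, 0.743 and 42.9 CPM. MELO3C010866.2 was less spread, at 892, 338 and 514 CPM. Every comparison with F39 30-35 d rests on this spread, and the counts below are given also without single libraries.

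TTDV 45 d against F39 30-35 d compares only libraries whose numbers agree and that the rule did not use. This comparison was chosen after the data were seen, shares its late libraries with the first. Of the 169 genes, 93 (55.0%) fell and 0 rose in edgeR, against 11.1% lower and 6.42% higher among all genes tested. DESeq2 called 107 lower and 2 higher, and 2 genes were higher at an unadjusted p under 0.05 in edgeR. Its groups differ in cultivar and in age, which cannot be told apart. The median log2 fold change was -3.01, against -0.13 for all genes tested. Libraries did not overlap for 56 genes that were lower (33.1%), against 13.3% of all genes tested. Without replicate 1 of F39 30-35 d, the calls were 54 lower and 2 higher. With only these 2 groups fitted, 24 were lower. No share over all genes is given for the DESeq2, unadjusted, leave-out and 2-group counts.

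MELO3C010866.2, at 18.3 to 44.7 CPM in TTDV 45 d, fell by 4.53 on the log2 scale in this comparison (SE 0.59, edgeR adjusted p = 8.6e-05). MELO3C026342.2 had 3321, 359 and 1283 CPM in F39 30-35 d and fell by 7.60 (SE 1.10, edgeR adjusted p = 0.00021). MELO3C015995.2 had 3466, 183 and 668 CPM in F39 30-35 d. It fell by 3.82 (SE 0.88, edgeR adjusted p = 0.0057), and without replicate 1 of F39 30-35 d the call was lost at -2.07. MELO3C014883.2 had 2194, 213 and 883 CPM in F39 30-35 d. Its fall of 2.11 (edgeR adjusted p = 0.020) was lost in 4 of the 6 leave-one-library-out fits, at -1.10 without replicate 1 of F39 30-35 d. MELO3C025164.2 had 891, 342 and 396 CPM in F39 30-35 d, overlapping TTDV 45 d, with a log2 fold change of 0.29 (SE 0.66, edgeR adjusted p = 0.80).

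Between TTDV 20-25 d and F39 30-35 d, which by library number is TTDV against F39 at 30-35 d, 52 genes (30.8%) were higher in TTDV and 0 lower in edgeR. Among all genes tested 2.71% were higher and 5.81% lower. As attached, the 2 groups differ in cultivar and in age, which cannot be told apart. At an unadjusted p under 0.05 edgeR had 90 higher and 0 lower, and DESeq2 called 75 higher and 0 lower. The median log2 fold change was 1.87, against 0.03 for all genes tested. The libraries of 75 genes did not overlap with TTDV higher (44.4%), against 8.72% of all genes tested. The number called followed single libraries. It was 101, 12 and 19 without replicates 1, 2 and 3 of F39 30-35 d, and 31, 18 and 51 without replicates 1, 2 and 3 of TTDV 20-25 d. With only these 2 groups fitted it was 0. With files matched by number, where the young TTDV libraries are those of the rule, 100 were higher, against 9.02% of all genes tested.

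The 4 largest differences called were in genes with little count in F39 30-35 d. MELO3C010177.2 had 83.8, 120 and 70.4 CPM in TTDV 20-25 d and 0.247, 0.270 and 0.811 CPM in F39 30-35 d, a log2 fold change of 7.73 (SE 0.87, edgeR adjusted p = 0.00016). It also had 114, 112 and 148 CPM in the files attached to F39 45 d and 15.7, 3.00 and 3.29 CPM in F39 20-25 d. The libraries of TTDV 20-25 d and the files attached to F39 45 d were thus above all 3 F39 20-25 d libraries. By library number these files are TTDV at 30-35 d and at 20-25 d. No test is given, since the rule used F39 20-25 d and the files attached to F39 45 d. MELO3C022039.2 had 54.0, 37.3 and 32.6 CPM in TTDV 20-25 d and 2.60, 0.203 and 0.203 CPM in F39 30-35 d, a log2 fold change of 5.43 (SE 0.88, edgeR adjusted p = 0.0030). It had no count in F39 40 d, TTDV 40 d or TTDV 45 d.

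MELO3C003757.2 had 3.65, 9.87 and 3.84 CPM in TTDV 20-25 d and 0.371, 0 and 0.0675 CPM in F39 30-35 d, a log2 fold change of 5.23 (SE 0.96, edgeR adjusted p = 0.0052). MELO3C012160.2 had 1.87, 117 and 20.9 CPM in TTDV 20-25 d and 2.41, 0 and 1.49 CPM in F39 30-35 d. These libraries overlapped. Its log2 fold change of 5.26 (SE 1.16, edgeR adjusted p = 0.0091) was 2.96, and no longer called, without replicate 2 of TTDV 20-25 d. None of these 4 calls held with only the 2 groups fitted.

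Levels also varied among F39 20-25 d, TTDV 20-25 d and the files attached to F39 45 d. The TTDV 20-25 d mean was below the F39 20-25 d mean for 104 of the 169 genes, more than 2-fold below for 45 and more than 2-fold above for 12. The files attached to F39 45 d had a median ratio of 1.31 to F39 20-25 d, with 9 genes over 4-fold higher and 3 over 4-fold lower. No test is given for these values, since the rule used F39 20-25 d.

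Few of the genes were called between the late groups TTDV 45 d and TTDV 40 d. By library number these are TTDV and F39 at 45 d. Counts were low in both groups. The median over the genes, averaged over the 3 libraries, was 1.38 CPM in TTDV 45 d and 1.47 CPM in TTDV 40 d. Few calls therefore do not show equal levels. In edgeR 2 of the 169 (1.18%) were higher at TTDV 45 d and 0 lower, against 0.218% and 0.0793% of all genes tested. At an unadjusted p under 0.05 edgeR had 17 higher and 15 lower, and DESeq2 called 6 higher and 6 lower. No share over all genes is given for these counts. The median log2 fold change was 0.18, against 0.03 for all genes tested. MELO3C018426.2 had 0.380, 0.830 and 0.734 CPM in TTDV 40 d and 20.3, 11.7 and 9.71 CPM in TTDV 45 d, a log2 fold change of 4.43 (SE 0.94, edgeR adjusted p = 0.046). MELO3C022120.2 had 0.253, 0.830 and 0.210 CPM in TTDV 40 d and 4.47, 2.92 and 2.65 CPM in TTDV 45 d, a log2 fold change of 3.03 (SE 0.56, edgeR adjusted p = 0.014). The libraries of both genes did not overlap. With files matched by number, where the 40 d libraries are those of the rule, 5 genes were lower and 2 higher, against 1.21% and 0.648% of all genes tested. The first call was lost in all 6 leave-one-library-out fits and the second in 3.

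Both genes were counted in leaf and young fruit at levels above their late ones. MELO3C018426.2 had 149, 95.8 and 143 CPM in leaf and 45.2, 362 and 188 CPM in TTDV 20-25 d. MELO3C022120.2 had 53.0, 22.8 and 33.7 CPM in leaf and 29.8, 44.8 and 79.8 CPM in TTDV 20-25 d.

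The fall at TTDV 45 d and 40 d was set beside that of the young-fruit genes with little count in leaf. Of the 64 genes that met the fruit conditions with under 1 CPM in leaf, 49 were called lower at TTDV 45 d, with a median log2 fold change of -5.71, and 55 at TTDV 40 d, with a median of -6.17. Of the 211 genes at 1 to 20 CPM in leaf, 183 and 187 were called lower. The difference between these sets was not tested.

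Genes close to the limits of the rule were as follows. In the F39 pair, MELO3C009833.2 at 8.23-fold and MELO3C026240.2 at 8.27-fold were just inside, and MELO3C010874.2 at 7.97-fold and MELO3C018593.2 at 7.93-fold just outside. In the second pair, MELO3C002360.2 at 8.01-fold and MELO3C003975.2 at 8.08-fold were just inside, and MELO3C008417.2 at 7.98-fold and MELO3C009488.2 at 7.91-fold just outside. In leaf, MELO3C009218.2 at 20.2 CPM and MELO3C012702.2 at 20.8 CPM were just inside, and MELO3C002755.2 at 19.5 CPM and MELO3C003225.2 at 19.3 CPM just outside. Neither gene at the limit of the second pair passed the test at TTDV 45 d. MELO3C002360.2 had 35.1, 350 and 86.5 CPM in TTDV 20-25 d and 11.2, 169 and 118 CPM in TTDV 45 d, a log2 fold change of -0.75 (SE 0.86, edgeR adjusted p = 0.53). MELO3C003975.2 had 14.4, 43.7 and 29.8 CPM in TTDV 20-25 d and 2.24, 19.4 and 24.5 CPM in TTDV 45 d, a log2 fold change of -0.98 (SE 0.89, edgeR adjusted p = 0.41). With the attached TTDV 20-25 d and 40 d libraries as the second pair, the rule gave 168 genes, of which 136 were among the 169.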

How the data were processed

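Libraries were made from mRNA of powdered frozen tissue, as the labels' protocols describe. Each of the 27 files deposited by the authors holds 1 library's raw whole-number counts per gene. The submitters' processing notes list STAR 2.5.4b and edgeR 3.12.1. Genome build, annotation, strandedness and the treatment of multi-mapped reads: none is stated in the labels or files, so genes that overlap or closely resemble each other have uncertain counts.

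The members and lists were chosen with earlier results of these data known. Genes were filtered with filterByExpr (15130 of 25200 kept; 3500 had no count), scaled by TMM and fitted in edgeR 4.0.16 (R 4.3.3, limma 3.58.1) with 1 mean per group over all 27 libraries. Each contrast had a robust quasi-likelihood F-test, and p-values were adjusted over all genes by Benjamini and Hochberg's method (threshold 0.05). Libraries of other groups thus share in the estimate of the spread, among them the 15 that the rule used to choose the genes. An SE is the log2 fold change divided by the square root of F. CPM values and shares use column totals. Floors of 3 counts and Poisson intervals cover counting error only, since PCR copies are not separate molecules; depth was 6025615 to 28731038 counts per library.

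Genes were named by rank: the 6 highest in leaf and in F39 20-25 d, the 4 highest and lowest leaf ratios, the 4 largest and smallest falls at TTDV 45 d, up to 4 called in each of the 2 remaining contrasts, the 3 highest at TTDV 45 d and those at the rule's limits. Members missing the threshold at TTDV 45 d or 40 d were to be named where 5 or fewer. Lists by product name could not be used, as the reference table (assembly USDA_Cmelo_AY_1.0) matched 0 IDs. No genome or sequence was used.

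Alternatives were DESeq2 1.42.0, median-of-ratios scaling, no filter, a stricter filter (1 CPM in 3 libraries and a mean of 5 CPM), only the groups compared, files matched by library number, and leaving out each library. For calls, shares over all genes are given only at adjusted p in the main edgeR fit, also read by library number. TTDV 45 d against F39 30-35 d was added after seeing the data. The script was tested on simulated data for TTDV 45 d against 20-25 d (14758 genes fitted): it called 86 of 100 genes lowered 8-fold, 97 of 100 lowered 64-fold and 8 of 14558 unchanged genes. The lowered genes were drawn from those averaging at least 20 CPM, and every other gene had 1 mean in all groups. In the real contrast many genes changed and many had lower counts, so these rates need not hold there. Python 3.11.15, pandas 2.3.3, numpy 2.4.6, scipy 1.17.1 and matplotlib 3.10.9 made tables and figures.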

Additional observations from a re-analysis of the deposited data

How the results depend on the processing

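The 156 genes lower at TTDV 45 d became 140 to 151 when 1 library was left out and 146 to 156 under the other settings; the 160 lower at TTDV 40 d became 148 to 157 and 156 to 160. These ranges leave out the match by library number, where the first contrast takes the young libraries of the rule and the second is the rule's own second pair, with medians of -5.68 and -4.66. For TTDV 20-25 d against F39 30-35 d, the 52 calls were 12 to 101 with 1 library left out and 0 with only the groups compared. The median of 1.87 was 3.21 without replicate 1 of F39 30-35 d. By library number there were 100 calls and a median of 2.70, but the TTDV libraries are then those by which the rule chose the genes. For TTDV 45 d against 40 d, the 2 calls were 12 with DESeq2, 1 with median-of-ratios scaling and 1 with no filter. They were 0 to 1 with 1 library left out and 7 by library number, where the rule used the 40 d libraries. For TTDV 45 d against F39 30-35 d, the 93 calls were 54 to 112 with 1 library left out, 24 with only the groups compared, and 85 in a fit restricted to the 15 agreeing libraries; the median was -1.88 and -3.53 without replicates 1 and 2 of F39 30-35 d. No share over all genes is given for the counts from other settings or with 1 library left out. The causes were not tested.

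The number of genes under the rule was 330 at 4-fold, 78 at 16-fold, 92 with a leaf minimum of 50 CPM and 206 with TMM scaling, of which 155 were among the 169. With TMM sizes the mean share of counts was 3.83% in leaf, 5.33% in F39 20-25 d, 6.28% in the files attached to F39 45 d and 0.218% in TTDV 40 d, in place of 2.15%, 6.19%, 6.56% and 0.248%.

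Directions turned in genes not called, when 1 library was left out. At TTDV 45 d, MELO3C006808.2 ran from -0.074 (without TTDV 20-25 d replicate 1) to 0.59, MELO3C002360.2 from -1.41 to 0.73 (without TTDV 20-25 d replicate 2), MELO3C020386.2 from -0.060 (without TTDV 45 d replicate 2) to 1.19, and MELO3C022734.2 from -2.51 to 0.30 (without TTDV 45 d replicate 2 or 3). At TTDV 40 d, MELO3C020386.2 ran from -0.59 to 0.35 (without TTDV 20-25 d replicate 3) and was 0.068 without TTDV 40 d replicate 2. Of 395 values of named genes under alternatives, 378 kept direction and call at TTDV 45 d and 372 at TTDV 40 d. Called genes at the rule's limits that lost the call were MELO3C009218.2 and MELO3C026240.2. No paired analysis was possible because the titles carry library numbers and no replicate numbers shared between groups. Depth limits genes near 1 count per library: bounds or ratios with intervals are given at TTDV 45 d and 40 d for 0 to 3 counts over a group, while the fitted values of MELO3C018579.2 at TTDV 45 d (5 counts) and MELO3C003757.2 in F39 30-35 d (7 counts) rest on few counts.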
